A study of Mus musculus with 6 samples.

Results

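The matrix metalloproteinase genes examined here are Mmp2, Mmp7, Mmp8, Mmp9, Mmp12, Mmp13, Mmp14, Mmp15, Mmp19 and Mmp23. They were chosen by gene symbol and make up 10 of the 21983 gene symbols counted in whole fibrotic mouse liver; another 13 genes of the family were also in the table. The livers came from 3 Lrat-Cre; Prmt1f/f mice (numbers 49, 82 and 88, called knockout mice) and 3 Prmt1f/f mice (numbers 42, 83 and 90, called control mice), all on the C57BL/6 strain. Mice of both genotypes carried the floxed Prmt1 allele and drank thioacetamide (TAA), a hepatotoxin that scars the liver, at 400 mg/L for 16 weeks. In the knockout mice a Cre recombinase was driven from Lrat, a gene that marks hepatic stellate cells in liver, so deletion was directed at those cells while whole liver was sequenced. The control mice are labelled without Cre, so the presence of Cre and the loss of Prmt1 cannot be told apart, and no liver without TAA was analysed here. The labels give an age of 10 weeks without saying whether this was before or after the 16 weeks of TAA, and they give no sex. The comparison asked how the fibrotic liver transcriptome differed between the genotypes.

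Matrix metalloproteinases are zinc-dependent proteases that cut collagens, elastin, laminins and other proteins outside cells. Most are made as inactive proenzymes, activated by removal of a propeptide and held in check by the tissue inhibitors of metalloproteinases (TIMPs). In scarred liver they are made by stellate cells, macrophages, neutrophils and bile duct cells, and they are known both for resolving scar and for remodelling the matrix as it forms.

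Total counts lay between 13303884 and 16462278 per mouse. The liver label was checked against 9 hepatocyte marker genes, all of them tested and led by Alb, whose summed level lay between 87031 and 101857 CPM in the knockout livers and between 71112 and 106496 CPM in the control livers. CPM is the usual count relative to the library total, with libraries scaled by the trimmed mean of M-values (TMM). Prmt1, the targeted gene, had 35.8, 24.7 and 25.8 CPM in knockout mice 49, 82 and 88, against 38.9, 44.4 and 49.8 CPM in control mice 42, 83 and 90. The groups did not overlap, and edgeR fitted a log2 fold change of -0.62 (SE 0.20, adjusted p = 0.347 by its quasi-likelihood test).

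Of the genes examined, 4 lie in a cluster of 10 metalloproteinase genes within 427 kb of chromosome 9 (7272514 to 7699585, GENCODE annotation of GRCm38). These are Mmp13, Mmp12, Mmp8 and Mmp7, in the order of their positions, all on the plus strand. The RefSeq promoter table (GRCm38.p6) held windows for 7 of the 10 genes, each from 250 bases before to 50 bases after a transcription start. The windows were searched on both strands for TGANTCA, the core letters recognised by AP-1 (FOS and JUN proteins), a textbook regulator of metalloproteinase genes, and for TATAAA, the letters of a TATA box. TGANTCA was found in windows of Mmp7, Mmp12 and Mmp13, and in 7.81% of all 32851 promoter windows of that length. TATAAA was found in windows of Mmp7, Mmp8, Mmp12 and Mmp13, and in 13.6% of all windows. Neither was found in the windows of Mmp14, Mmp15 or Mmp23. The windows of the 4 clustered genes are shown because each holds at least 1 of these motifs, which are in capitals. They lie on the plus strand at chr9:7691840-7692139 for Mmp7, chr9:7558179-7558478 for Mmp8, chr9:7347124-7347423 for Mmp12 and chr9:7272264-7272563 for Mmp13.
Mmp7: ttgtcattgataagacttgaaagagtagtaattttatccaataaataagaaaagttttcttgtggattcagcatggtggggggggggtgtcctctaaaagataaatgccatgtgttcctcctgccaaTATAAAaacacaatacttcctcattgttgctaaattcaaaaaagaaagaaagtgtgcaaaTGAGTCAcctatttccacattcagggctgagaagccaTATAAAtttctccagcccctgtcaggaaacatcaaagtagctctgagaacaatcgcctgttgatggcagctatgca
Mmp8: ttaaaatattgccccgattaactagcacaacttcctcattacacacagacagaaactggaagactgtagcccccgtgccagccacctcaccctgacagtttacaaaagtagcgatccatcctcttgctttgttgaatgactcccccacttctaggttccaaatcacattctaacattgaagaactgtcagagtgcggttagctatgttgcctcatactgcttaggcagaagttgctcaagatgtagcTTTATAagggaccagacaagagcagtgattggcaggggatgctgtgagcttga
Mmp12: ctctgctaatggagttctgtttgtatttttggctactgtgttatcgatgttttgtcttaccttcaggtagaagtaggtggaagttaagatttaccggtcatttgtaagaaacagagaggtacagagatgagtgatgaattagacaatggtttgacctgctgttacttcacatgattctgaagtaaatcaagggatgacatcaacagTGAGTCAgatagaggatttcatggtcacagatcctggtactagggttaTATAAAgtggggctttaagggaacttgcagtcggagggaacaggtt
Mmp13: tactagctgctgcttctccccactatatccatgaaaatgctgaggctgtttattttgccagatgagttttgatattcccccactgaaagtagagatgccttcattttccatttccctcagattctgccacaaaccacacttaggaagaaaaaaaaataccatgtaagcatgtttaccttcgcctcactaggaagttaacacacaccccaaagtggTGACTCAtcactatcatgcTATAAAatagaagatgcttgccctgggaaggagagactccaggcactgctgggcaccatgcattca
Counted from the transcription start, TGANTCA began at -63 in Mmp7, -44 in Mmp12 and -35 in Mmp13. In Mmp7, Mmp12 and Mmp13 it lay before the TATAAA nearest the start, which began at -26, 5 and -16. The TATAAA of Mmp8 lies on the minus strand of its window. Mmp7 and Mmp12 each have a second window in the table, without either motif. A match is a description of these letters and shows no binding.

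Per kilobase of exon, Mmp7 had the highest level of the 10 genes in every liver. In CPM, which do not allow for length, it was under Mmp15, Mmp14, Mmp2 and Mmp19 in mouse 49 and under Mmp2 in mouse 42. Its share of the summed level of the 10 genes, in CPM per kilobase of exon, was 43.1%, 60.9% and 71.5% in knockout mice 49, 82 and 88, and 52.1%, 73.1% and 85.4% in control mice 42, 83 and 90. The share thus varied widely within each genotype, and the groups overlapped. Averaged over the 6 mice, the levels per kilobase were 149 CPM for Mmp7, 24.7 for Mmp2, 13.3 for Mmp19, 9.71 for Mmp15, 9.52 for Mmp14, 2.60 for Mmp23, 1.27 for Mmp12, 0.730 for Mmp9, 0.619 for Mmp13 and 0.322 for Mmp8. Mmp7 exceeded Mmp2, Mmp2 exceeded Mmp19 and Mmp19 exceeded Mmp15 in all 6 mice. Mmp15 and Mmp14 were not ordered beyond their spread, Mmp15 being the higher in 4 of 6 mice. Mmp14 exceeded Mmp23 and Mmp23 exceeded Mmp12 in 6 of 6 mice. Among the scarce members, Mmp12 exceeded Mmp9 in 5 mice, Mmp9 exceeded Mmp13 in 3 and Mmp13 exceeded Mmp8 in 5. These levels use the union of annotated exons as length, which need not be the annotation the authors counted on. With the longest coding transcript as length, a choice made after seeing the data, Mmp14 was at 17.5 CPM per kilobase and came before Mmp19, Mmp23 was at 4.24 and Mmp12 at 2.55. Mmp7 remained first, with shares of 38.2% to 67.6% in knockout livers and 46.9% to 81.8% in control livers.

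**Figure D1:**
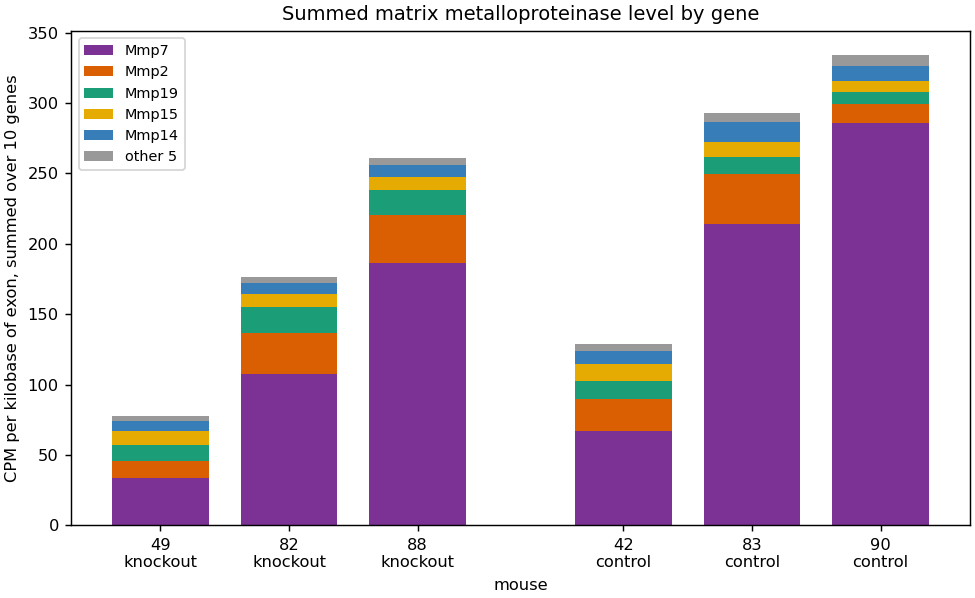
Level of the 10 genes in each liver, in CPM per kilobase of exon, stacked by gene, with the 3 knockout mice on the left and the 3 control mice on the right; "other 5" is the sum of Mmp23, Mmp12, Mmp9, Mmp13 and Mmp8. Mmp7 is the largest segment in every mouse, and total height varies from 77.3 to 261 in knockout and from 129 to 334 in control livers.

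The summed level was 77.3, 177 and 261 CPM per kilobase in knockout mice 49, 82 and 88, against 129, 293 and 334 in control mice 42, 83 and 90. Without Mmp7 the sum of the other 9 genes was 44.0, 69.1 and 74.6 in the knockout livers, against 61.8, 78.7 and 48.7 in the control livers. The groups overlapped in both sums, and the means without Mmp7 were 62.6 ± 16.3 and 63.1 ± 15.0 in knockout and control livers (SD, n = 3 each).

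No member of the family passed the test between genotypes. With edgeR's quasi-likelihood test and Benjamini-Hochberg adjustment over all 13153 genes tested, 0 of the 10 members and 0% of all genes had an adjusted p under 0.05. DESeq2 called 0 of the 10 members, against 0.936% of all genes lower and 0.875% higher. At an unadjusted p under 0.05, edgeR gave 2 members, Mmp12 and Mmp14, both lower in knockout livers, where it gave 5.95% of all genes as lower and 5.06% as higher. The knockout livers lay wholly under the control livers in 3 members, Mmp8, Mmp12 and Mmp14, and wholly above them in 0. Among all genes tested, 7.94% had groups separate in the lower direction and 8.96% in the higher. A negative log2 fold change was fitted for 8 members, against 52.7% of all genes tested. The median log2 fold change was -0.40 over the members and -0.02 over all genes tested. The members' median was -0.24 without mouse 49, -0.66 without mouse 82 and -0.67 without mouse 88. Every member passed the filter on low counts. Mmp8, the scarcest, passed through the 3 control livers and mouse 88, so a difference was partly built into its selection. In bulk tissue, fewer cells of a type and less RNA per cell cannot be told apart.

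**Figure D2:**
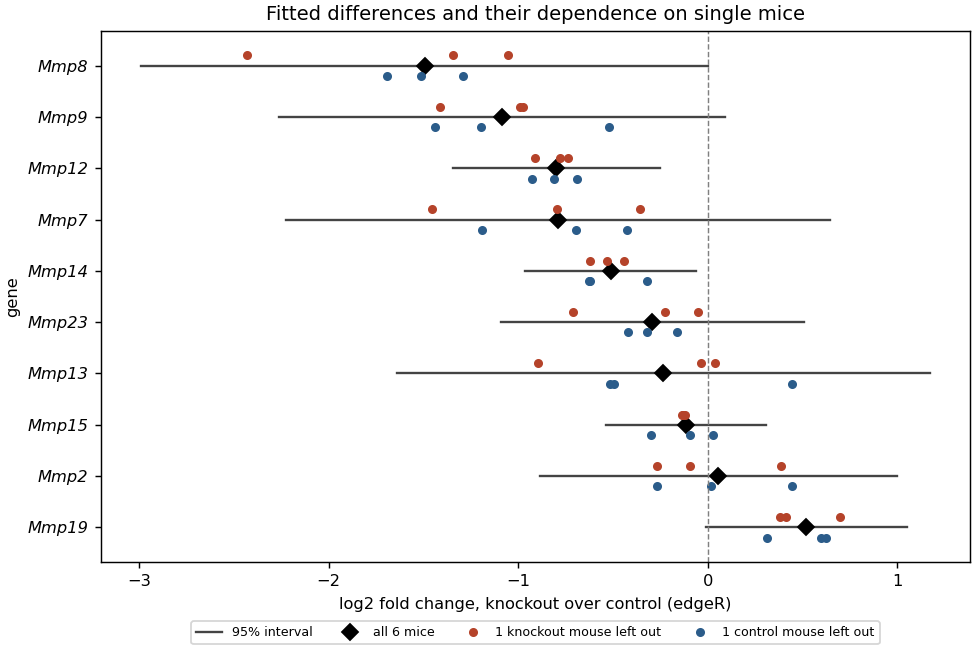
Log2 fold change of each member, knockout over control, in edgeR's fit on all 6 mice (diamonds, with 95% intervals as lines) and with each single mouse left out (circles, knockout mice above the line and control mice below it). Mmp12 stays between -0.93 and -0.69, while the values of Mmp2, Mmp13 and Mmp15 lie on both sides of 0.

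The gelatinases Mmp2 and Mmp9 cut denatured collagen and basement membrane collagen. Mmp2 (chromosome 8, 92827291 to 92853420, plus strand), a product of stellate cells in injured liver, had 41.7, 98.2 and 115 CPM in knockout mice 49, 82 and 88, against 77.1, 120.1 and 47.4 CPM in control mice 42, 83 and 90. The lowest level belonged to a knockout mouse and the highest to a control mouse, with full overlap between them. For Mmp2 edgeR fitted a log2 fold change of 0.06 (SE 0.42, 95% interval -0.89 to 1.0, adjusted p = 0.968), a wide interval on both sides of 0. Its sign turned negative with total counts as the only scaling (-0.17), with a term for mouse number (-0.058) and without mouse 82, 88 or 90. Mmp9 (chromosome 2, 164940780 to 164955850, plus strand), made mainly by neutrophils and macrophages, had 2.32, 1.35 and 1.3 CPM in knockout mice 49, 82 and 88, against 1.53, 5.74 and 3.27 CPM in control mice 42, 83 and 90. Control mice 83 and 90 lay above all knockout mice and control mouse 42 lay under knockout mouse 49. The fitted change was -1.09 log2 (SE 0.52, adjusted p = 0.468), and -0.52 without mouse 83.

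The collagenases Mmp8 and Mmp13 cut fibrillar collagen across its triple helix, and both were scarce. Mmp8 (chromosome 9, 7558456 to 7568485, plus strand), the collagenase stored in neutrophil granules, had 2, 4 and 11 counts in knockout mice 49, 82 and 88, against 12, 22 and 19 counts in control mice 42, 83 and 90. In CPM the highest knockout liver was at 0.792 and the lowest control liver at 0.799, so the groups were separate by a margin far inside counting error. Summed over mice there were 17 counts in knockout and 53 in control livers, a ratio after library scaling of 0.352 with a 95% exact interval of 0.191 to 0.618 that covers counting error only. The fitted log2 fold change was -1.49 (SE 0.66, 95% interval -2.99 to 0.0026, adjusted p = 0.454), -1.05 without mouse 49 and -2.43 without mouse 88. Mmp13 (chromosome 9, 7272514 to 7283331, plus strand), known as the main interstitial collagenase of rodents, had 14, 35 and 14 counts in knockout mice 49, 82 and 88, against 16, 21 and 40 counts in control mice 42, 83 and 90. A single mouse of each genotype, 82 and 90, stood above the other 4, which held 14 to 21 counts. Its log2 fold change was -0.23 (SE 0.62, adjusted p = 0.903) and changed sign without mouse 49 (0.039) or mouse 90 (0.44).

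Matrilysin and macrophage elastase differed in how far the mice varied. Mmp7 (chromosome 9, 7692090 to 7699585, plus strand), matrilysin, is a small metalloproteinase without a hemopexin domain that epithelia make, among them injured bile ducts. It had 35.6, 115 and 199 CPM in knockout mice 49, 82 and 88, against 71.8, 229 and 305 CPM in control mice 42, 83 and 90. The levels spanned 8.57-fold over the 6 mice, 5.6-fold among the knockout and 4.25-fold among the control mice. The groups overlapped, with control mouse 42 under knockout mice 82 and 88. The knockout mean was 57.8% of the control mean, with a log2 fold change of -0.79 (SE 0.63, 95% interval -2.23 to 0.64, adjusted p = 0.649). The value was -0.36 without mouse 49, -0.43 without mouse 90 and -1.46 without mouse 88. Of the 1068 exon bases of Mmp7, 123 overlap AV064505, an antisense gene that is not among the counted genes. The strand setting of the counting is not given, so any part of such reads in the Mmp7 level is not known. Mmp12 (chromosome 9, 7344381 to 7369499, plus strand), the elastin-cutting metalloproteinase of macrophages, had 6.18, 7.64 and 6.34 CPM in knockout mice 49, 82 and 88, against 11.5, 9.59 and 14.1 CPM in control mice 42, 83 and 90. All knockout livers lay under all control livers. The means were 6.72 ± 0.802 and 11.7 ± 2.24 CPM in knockout and control livers (SD, n = 3 each). This is a log2 fold change of -0.80 (SE 0.24, 95% interval -1.34 to -0.25), for which edgeR gave an unadjusted p of 0.00904 and an adjusted p of 0.323. Of its exons 157 bases overlap Mmp1b on the other strand, which had 0 counts. It had the smallest adjusted p of the 10 members, also in DESeq2 (0.106). An exact permutation test over the 20 possible assignments gave a two-sided p of 0.1, its lowest possible value. Leaving out single mice gave values between -0.93 and -0.69.

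Among the membrane-bound members, Mmp14 showed separate groups. Mmp14 (chromosome 14, 54431612 to 54445364, plus strand) encodes a transmembrane collagenase that also activates pro-MMP2 at the cell surface. It had 42.3, 46.4 and 51.6 CPM in knockout mice 49, 82 and 88, against 56.1, 83.4 and 60.6 CPM in control mice 42, 83 and 90. The knockout livers lay closely together under all control livers, of which mouse 83 was the highest. The means were 46.8 ± 4.62 and 66.7 ± 14.6 CPM in knockout and control livers (SD, n = 3 each), a log2 fold change of -0.51 (SE 0.20, 95% interval -0.96 to -0.064). The unadjusted p was 0.0295 and the adjusted p 0.404 in edgeR's test, with an exact permutation p of 0.1, and the log2 fold change was -0.32 without mouse 83. Mmp15 (chromosome 8, 95352268 to 95375080, plus strand), a relative of Mmp14, had 51.0, 50.5 and 49.5 CPM in knockout mice 49, 82 and 88, against 64.6, 56.0 and 42.7 CPM in control mice 42, 83 and 90. It was the least variable member, spanning 1.51-fold over the 6 mice, and the knockout livers lay within the range of the control livers. For Mmp15 edgeR fitted a log2 fold change of -0.12 (SE 0.19, 95% interval -0.54 to 0.31, adjusted p = 0.829). Mmp23 (chromosome 4, 155650655 to 155653384, minus strand), which is anchored in the membrane by its amino-terminal part, had 3.54, 4.79 and 8.07 CPM in knockout mice 49, 82 and 88, against 5.40, 6.45 and 8.26 CPM in control mice 42, 83 and 90. The groups overlapped, with a log2 fold change of -0.29 (SE 0.35, adjusted p = 0.762) that was -0.053 without mouse 49 and -0.71 without mouse 88.

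Mmp19 was the member with the largest positive difference. Mmp19 (chromosome 10, 128790910 to 128800824, plus strand) encodes a secreted protease of basement membrane proteins. It had 41.2, 64.3 and 61.1 CPM in knockout mice 49, 82 and 88, against 44.1, 42.8 and 29.3 CPM in control mice 42, 83 and 90. Knockout mice 82 and 88 lay above all control mice, while mouse 49 lay under control mice 42 and 83. For Mmp19 the fit gave a log2 fold change of 0.52 (SE 0.23, 95% interval -0.012 to 1.05, adjusted p = 0.456), and 0.31 without mouse 90. Its value is uncertain because 789 bases of its exons overlap Tmem198b on the other strand, which had 410 counts over the 6 mice, and the strand setting of the counting is not given in the sources used here.

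**Figure D3:**
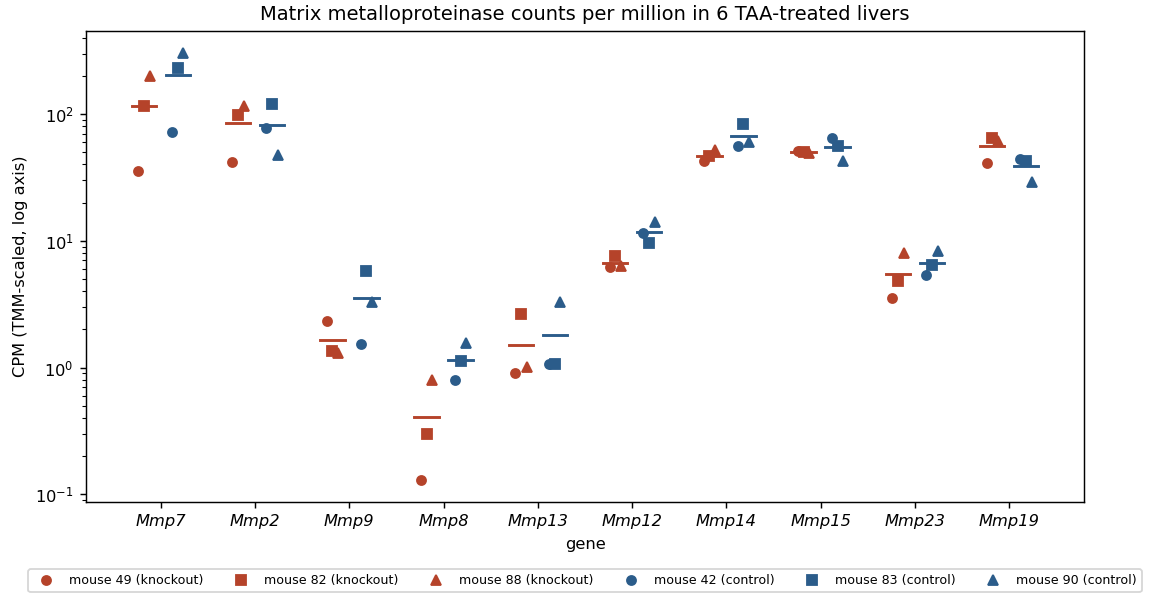
CPM of each member on a log axis, with knockout mice (red) left of control mice (blue) for each gene, 1 symbol per mouse and a bar at the group mean. The red and blue symbols are separate in Mmp8, Mmp12 and Mmp14, and Mmp8 is separate by 0.792 against 0.799 CPM.

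The same mice stood at the ends of several members. Of the 6 mice, knockout mouse 49 had the lowest level in 7 members (Mmp2, Mmp7, Mmp8, Mmp12, Mmp13, Mmp14 and Mmp23), and control mouse 90 was the highest in 5 (Mmp7, Mmp8, Mmp12, Mmp13 and Mmp23) and the lowest in Mmp15 and Mmp19. The mouse numbers fall into a low and a high range, 42 and 49 against those over 80, and no label calls this a batch. Between genotypes within each range the difference in mean log2(CPM + 0.5) had the same sign in 6 members, Mmp7, Mmp8, Mmp12, Mmp13, Mmp14 and Mmp23. For Mmp12 it was -0.84 log2 between mice 49 and 42 and -0.70 among the 4 mice numbered over 80, and for Mmp14 it was -0.40 and -0.54. For Mmp9 it was 0.47 and -1.41, and for Mmp2 -0.88 and 0.49, with opposite signs. These values differ from fitted log2 fold changes. With the mice numbered over 80 alone, edgeR fitted -1.77 for Mmp9 and 0.35 for Mmp2.

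Markers of the cells known to make these enzymes also differed between mice. The summed level of 12 neutrophil markers lay between 12.0 and 18.9 CPM in the knockout livers and between 19.0 and 101 CPM in the control livers. Mice 83 and 90 held the highest sums of these markers and the highest CPM of Mmp8. Control mouse 42, at 19.0 CPM, lay beside knockout mouse 82, at 18.9 CPM. Of the neutrophil markers 5 were tested, 5 of 5 were lower at an unadjusted p under 0.05 and DESeq2 called 2, S100a8 and S100a9, where 5.95% of all genes were lower at that p and 0.936% by DESeq2. Of these 5, Il1r2 passed the filter on low counts through the control livers alone, so its lower level was partly built in. S100a8 and S100a9 overlapped between genotypes. Control mouse 42 had 2.47 CPM of S100a8, under knockout mice 82 (4.57) and 88 (2.81). It had 3.46 CPM of S100a9, under knockout mouse 82 (4.27). Ly6g, a defining marker, had no count in 4 mice. The summed level of 11 markers of recruited monocytes and macrophages lay between 191 and 446 CPM in the knockout livers and between 289 and 826 CPM in the control livers. Of the 10 tested, 3 were lower at an unadjusted p under 0.05 (5.95% of all genes) and DESeq2 called 1 lower, Fabp5 (0.936% of all genes), and Trem2 was listed at 0 in every mouse. Kupffer cell markers summed to between 335 and 538 CPM in the knockout livers and between 234 and 715 CPM in the control livers, with 2 of 10 higher at an unadjusted p under 0.05, against 5.06% of all genes. Bile duct markers summed to between 174 and 242 CPM in the knockout livers and between 165 and 282 CPM in the control livers. Onecut1, which hepatocytes also express, led this sum except in control mouse 83, where Epcam had 64.2 CPM and Onecut1 41.5 CPM. Of the 9 tested, 2 were lower and 1 higher at an unadjusted p under 0.05, against 5.95% and 5.06% of all genes. The bile duct keratin Krt7 had 4.31, 8.39 and 18.2 CPM in knockout mice 49, 82 and 88, against 9.19, 25.0 and 18.1 CPM in control mice 42, 83 and 90. Krt7 and Mmp7 were both lowest in mouse 49, but Krt7 was highest in mouse 83 and Mmp7 in mouse 90. Onecut1 of the same list was highest in mouse 49, at 148 CPM. The 13 markers of stellate cells and myofibroblasts summed to between 298 and 557 CPM in the knockout livers and between 689 and 835 CPM in the control livers, without overlap, and DESeq2 called 5 of them lower, against 0.936% of all genes. Col1a1 led this sum in every liver. Groups were separate in the lower direction in 6 of the 13, against 7.94% of all genes, and overlapped in the others. The log2 fold change was negative in 12, against 52.7% of all genes, and 0.028 (SE 0.36) in Pdgfrb. Sinusoidal endothelial markers summed to between 366 and 580 CPM and between 456 and 634 CPM in knockout and control livers, with 0 of 10 under an unadjusted p of 0.05. Markers of mesothelial cells and portal fibroblasts summed to between 30.6 and 49.8 CPM and between 52.8 and 129 CPM in knockout and control livers. Eln led this sum in every liver, with 101 CPM in control mouse 42. Of the 7 tested, Eln alone had separate groups, was lower at an unadjusted p under 0.05 and was called by DESeq2. Those shares were 7.94%, 5.95% and 0.936% of all genes in the lower direction. The hepatocyte markers had a median log2 fold change of 0.53, but 3 of the 9 were negative. Alb, which leads their sum, was at 0.097 (SE 0.36), and the sums given above overlapped between genotypes. Of the 9 tested, 2 were higher with an unadjusted p below 0.05, 3 had groups separate in the higher direction, and DESeq2 called 1 higher, Cps1, against 5.06%, 8.96% and 0.875% of all genes. The part of these markers in the values of Mmp8, Mmp9, Mmp12, Mmp7 and Mmp14 was not tested.

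**Figure D4:**
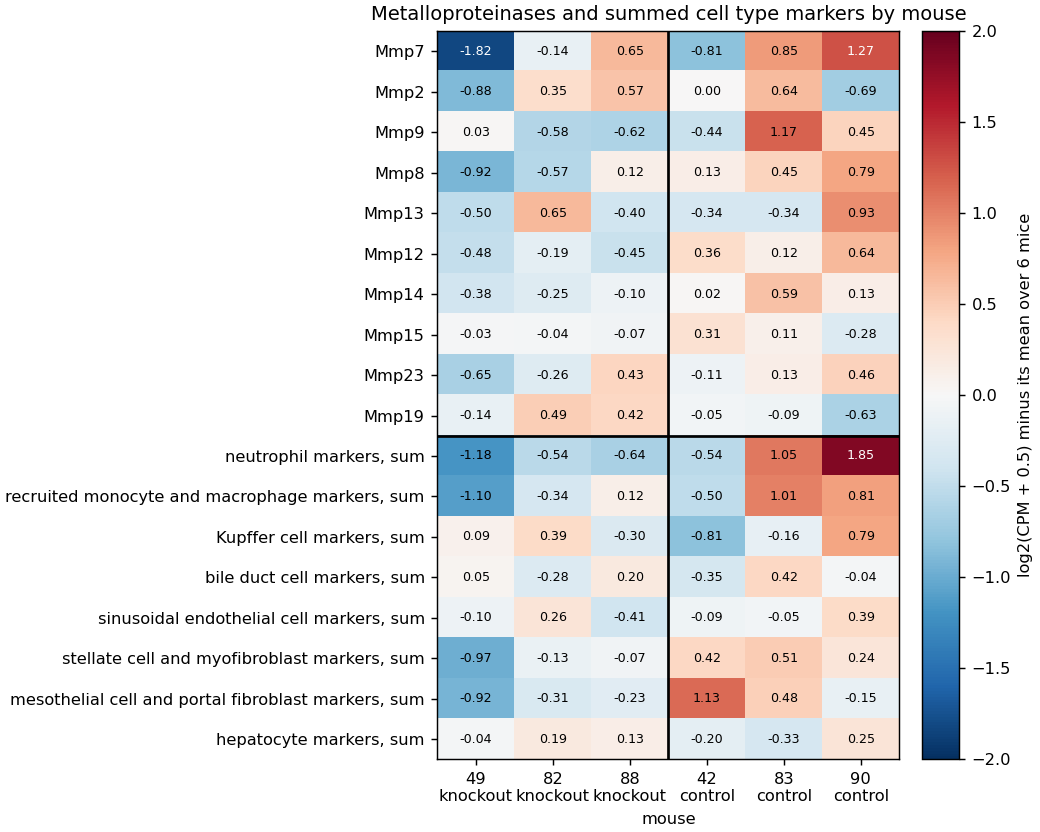
Log2(CPM + 0.5) minus its mean over the 6 mice for the 10 members (top) and for the summed CPM of each list of cell type markers (bottom), with knockout mice left of the vertical line and control mice right of it. Mouse 49 is lowest in Mmp7 (-1.82), in the neutrophil sum (-1.18) and in the monocyte and macrophage sum (-1.10), and mouse 90 is highest in Mmp7 (1.27) and in the neutrophil sum (1.85). Mouse 49 is also lowest in the stellate cell sum (-0.97) and in the mesothelial cell and portal fibroblast sum (-0.92). In the bile duct sum it is at 0.05 and not the lowest.

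The inhibitors were set beside the enzymes. Timp1, the inducible inhibitor, had 0.837, 0.824 and 0.936 CPM in the knockout livers, against 5.0, 6.4 and 6.87 CPM in the control livers, while Timp2 and Timp3 overlapped between genotypes. The ratio of the summed members to summed Timp1 to Timp4, both in CPM per kilobase, was 4.48, 5.11 and 5.71 in knockout mice 49, 82 and 88, against 3.50, 4.89 and 7.48 in control mice 42, 83 and 90. The knockout livers lay inside the range of the control livers. Timp3, which binds to the matrix, made up 46.5%, 47.2% and 39.3% of the inhibitor sum in the knockout livers, against 37.2%, 40.3% and 44.9% in the control livers. Without Mmp7 the ratio was 2.55, 2.0 and 1.63 in the knockout livers, against 1.68, 1.31 and 1.09 in the control livers, with only mouse 88 inside the control range. Both ratios use the union of annotated exons as length. No other length was tried for the inhibitors, and no p was computed for the ratios.

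Other genes that make, activate, hold or receive these enzymes were read from 6 lists. In none of them did edgeR call a gene at an adjusted p under 0.05. Of 13 other family members 4 were tested, 0 were called by DESeq2 and Mmp1a and Mmp1b had no counts; Mmp17 (0.65, SE 0.37), Mmp27 (0.71, SE 0.56) and Mmp11 (0.31, SE 0.47), given as log2 fold changes, had the smallest p, and the groups overlapped in each. The value of Mmp11 is uncertain, because 155 bases of its exons overlap Chchd10 on the other strand. Chchd10 had 41521 counts over the 6 mice, Mmp11 had 116 in knockout and 110 in control livers, and the strand setting is not given. Of 9 inhibitors tested, 2 were lower by DESeq2 (Timp1 and Thbs1) and 0 higher, against 0.936% and 0.875% of all genes. Thbs1, a matricellular protein, was at -1.58 (SE 0.24) and the murinoglobulin Mug1, a plasma protease inhibitor, at 0.99 (SE 0.34), while Pzp, its most abundant relative, was at 0.39 (SE 0.28). Of 12 genes of proenzyme activation tested, DESeq2 called 1 lower, Plaur, the receptor of urokinase, where it called 0.936% of all genes lower. Plaur had 2.83, 1.95 and 3.17 CPM in the knockout livers, against 6.80, 10.6 and 7.36 CPM in the control livers. In this list 3 genes had groups separate in the higher direction and 1 in the lower, against 8.96% and 7.94% of all genes. Before adjustment, edgeR's p fell below 0.05 for 3 lower and 2 higher ones, where the shares of all genes were 5.95% and 5.06%. The 2 measures thus leaned in opposite directions, and 5 of the 12 log2 fold changes were negative. Among the 3 separate in the higher direction were Pcsk6 (0.76, SE 0.26) and Pcsk5 (0.69, SE 0.24). Both are proprotein convertases, relatives of the furin that trims membrane metalloproteinases. Plg, the plasmin precursor, was at 0.64 (SE 0.29), and its groups overlapped. Of 19 genes of induction and uptake tested, DESeq2 called 0, and 5 had groups separate in the lower direction (7.94% of all genes), among them Tgfb1 (-0.51, SE 0.19) and the AP-1 subunit Fosl1 (-1.13, SE 0.50). Fosl1 had 1.35, 0.599 and 1.58 CPM in the knockout livers, against 2.07, 3.91 and 1.72 CPM in the control livers. Lrp1, an endocytic receptor that clears metalloproteinases, was at 0.81 (SE 0.35), and its groups overlapped.

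Matrix substrates and the related ADAM and ADAMTS proteases were read in the same way. Of 24 matrix substrate genes tested, 9 had groups separate in the lower direction and 0 in the higher, against 7.94% and 8.96% of all genes. DESeq2 called 3, all lower, against 0.936% of all genes. These were Lama1, a laminin chain (-1.37, SE 0.26), Col3a1, a fibrillar collagen (-1.58, SE 0.33), and Eln, elastin (-1.93, SE 0.48). Eln, a substrate of the Mmp12 product, had 13.3, 14.5 and 13.6 CPM in the knockout livers, against 101, 32.7 and 24.6 CPM in the control livers. The most abundant substrate gene, Vtn, made by hepatocytes, was at 0.28 (SE 0.31). Of 24 ADAM and ADAMTS genes tested, 7 had groups separate in the lower direction and 0 in the higher, against 7.94% and 8.96% of all genes. DESeq2 called 1 lower, Adamts14 (-1.46, SE 0.33), a procollagen N-proteinase, and Adamts2, of the same activity, was at -0.93 (SE 0.30), Adamts1 at -0.71 (SE 0.26) and the most abundant gene, Adam9, at 0.40 (SE 0.22). Median log2 fold changes were -0.61 over the substrates and -0.51 over the ADAM and ADAMTS genes, and -0.02 over all genes tested. The differences between the lists and the 10 members were not tested.

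The genes closest to each member in pattern over the 6 mice were found by the root mean square difference of centred log2(CPM + 0.5), among 12487 or 12488 named genes with a mean of at least 1 CPM. The search uses both the genotypes and the differences between mice of a genotype, and describes these 6 libraries only. Mmp2 lay closest to Pkhd1 (0.060 log2), Celsr2 (0.087) and Pcdh7 (0.12). Pkhd1 encodes fibrocystin, a protein of bile duct cilia. Mmp7 lay closest to Ms4a6c (0.25), Fgl2 (0.26) and Ms4a4a (0.26). Ppih (0.12) and Chst2 (0.12) were among the 3 genes closest to Mmp12. Mmp14 lay closest to Hid1 (0.054), Tmem132a (0.059) and Tpm4 (0.067), and Mmp19 to Cyb5rl (0.043), Nfix (0.044) and Fbxl20 (0.068). Mmp13 lay closest to Irf7 (0.15), Gpihbp1 (0.20) and Ifitm3 (0.20), of which Irf7 and Ifitm3 are interferon-stimulated genes. Lpl (0.13) and Tmem268 (0.14) were among the 3 genes closest to Mmp8. Mmp9 lay closest to Ydjc (0.22), Nqo1 (0.23) and Kif15 (0.23), Mmp15 to Elmsan1 (0.049), Uhrf2 (0.055) and Mdc1 (0.055), and Mmp23 to Anxa9 (0.081), Bend5 (0.088) and Tmem47 (0.097). Among the members themselves Mmp8 and Mmp23 had the smallest difference (0.30), followed by Mmp14 and Mmp15 (0.33). The measure is also small between genes that vary little over the mice. Mmp14 and Mmp15 had SDs of 0.31 and 0.18 log2 over the 6 mice, so their small difference need not mean a shared pattern. Mmp8 had 2 to 22 counts per mouse, so counting error and the added 0.5 affect its pattern, also beside Mmp23.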

How the data were processed

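The authors deposited raw counts per gene symbol for the 6 mice in a single table. Per the submitters' processing notes the tools were Trimmomatic, FastQC, STAR and HTSeq and the build was mm10; no versions were listed. TRIzol was used for RNA and a NEBNext Ultra kit for libraries, per the labels' protocols. Which annotation HTSeq used, and whether it counted by strand, is not given in the sources used here. Columns were matched to mice by the mouse number in the sample titles, which describe separate mice. No count was recorded for 5067 genes, and 0 columns belonged to other samples.

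Genes were filtered with filterByExpr, which kept 13153, scaled by TMM (factors 0.909 to 1.20) and compared by genotype alone over the 6 mice with edgeR 4.0.16 under R 4.3.3 (quasi-likelihood F test). Adjusted p-values are Benjamini-Hochberg values over all genes tested. A positive log2 fold change means a higher level in knockout livers. Its standard error was derived from the F statistic, and intervals use the t distribution. CPM divides counts by the total count times the TMM factor. SDs are between mice (n = 3). The exact permutation test compared mean log2(CPM + 0.5). The test was checked on simulated counts.

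The alternatives were RLE factors, total counts only, no filter, at least 1 CPM in 3 mice, DESeq2 1.42.0, limma-voom (limma 3.58.1), a robust fit, library weights in voom, a mouse number term (low or high), only the 4 mice numbered over 80, a looser adjusted p (0.10) and leaving out single mice. The members and lists were chosen with earlier results of these data known. Named were all members, Prmt1, the TIMPs, the 3 genes with the smallest p and the most abundant gene of each pathway list, and the 3 genes most like each member, except for 1 gene each for Mmp8 and Mmp12 that is not reported here. Krt7 and the marker genes named were chosen after their values were seen. Positions are from GENCODE M21 on GRCm38, the assembly of mm10. Promoter sequences are from RefSeq (GRCm38.p6).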

Additional observations from a re-analysis of the deposited data

How the results depend on the processing

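Over the 16 alternative fits, 0 of 159 values of single members had an adjusted p under 0.05, and the number of members called was 0 in each fit. At an adjusted p of 0.10 it was 0 in the edgeR fit on all mice, while Mmp14 had 0.0838 in limma-voom with a weight per library. The sign of the log2 fold change was that of the fit on all mice in 149 values and turned in 10, all in Mmp2, Mmp13 and Mmp15. Mmp2 was at -0.17 with total counts only and -0.058 with a term for mouse number, and between -0.27 and 0.45 with single mice left out. Mmp13 was at 0.46 with a weight per library, and between -0.90 and 0.44 with single mice left out. Mmp15 was at 0.019 in the mice numbered over 80 alone, and between -0.30 and 0.028 with single mice left out. The cause was not tested. The median of the members was between -0.67 and -0.24 with single mice left out. Total counts only moved the median of all genes by -0.15 log2 relative to TMM. The number of genes called over the whole table was 0 in the edgeR fit (1448 at an unadjusted p under 0.05), 3 at an adjusted p of 0.10, 4 without the filter, 238 with DESeq2, 560 with a weight per library and 6 with a term for mouse number, and 0 to 13 with single mice left out, 13 without mouse 49. Mmp8 did not pass the filter of 1 CPM in 3 mice, so it has no value there. No paired analysis was possible because the genotypes share no mouse numbers. Counting error is largest in Mmp8, with 2 to 22 counts per mouse, and small in Mmp2, Mmp7, Mmp14, Mmp15 and Mmp19, with at least 359 counts per mouse.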

Other observations

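Mmp24, a membrane-bound family member known mainly from nervous tissue and outside the 10 genes examined, was chosen here after its values were seen. It had 5, 3 and 3 counts in knockout mice 49, 82 and 88, against 15, 36 and 9 counts in control mice 42, 83 and 90, and did not pass the filter on low counts. Its exons share 637 bases with BC029722 on the other strand, which had 1714 counts over the 6 mice, so reads of the pair cannot be told apart without the strand setting. No p was computed for it.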
